A study of Mus musculus with 16 samples.

Results

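The skeletal muscle genes Acta1, Ckm, Mylpf, Tnnt1, Tnnt3, Ttn and Des were followed by name through the bulk RNA-seq table of mouse knee joint cells, and 7 of 7 were among its 13733 genes. The table covers 16 libraries, 4 per group, from uninjured and injured joints of WT mice (WT D0 and WT D7) and of knockout mice (Trem2-/- D0 and Trem2-/- D7). WT libraries came from C57BL/6 mice and Trem2-/- libraries from mice of the same background with a whole-body knockout of Trem2, a surface receptor of macrophages. D0 joints were uninjured and D7 joints were taken 7 days after the anterior cruciate ligament was ruptured by a single compressive load on the tibia. Injured mice were male and 10 weeks old at injury by the study's account, and the labels also give an age of 16 weeks. For cell isolation the study's methods describe hindlimbs stripped of skin and muscle, and joints digested with collagenase into single cells. A protocol in the labels instead describes homogenized whole joints that kept traces of soft tissue, and names control and T1DM mice, which are in no group label here. How much muscle could be left in the material depends on which description holds. Whether each library is 1 mouse is not stated in the sources used here, so p-values judge differences against the spread between these libraries. Where a figure is marked with 1 mouse per point, each point is 1 library.

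Skeletal muscle fibres are filled with sarcomeres, in which thick filaments of myosin pull on thin filaments of actin when calcium binds to troponin on the thin filament. Fast and slow fibres use different gene copies for the same part, so that Tnnt3 encodes the troponin T of fast fibres and Tnnt1 that of slow fibres. Fast fibres also use Mylpf, a regulatory light chain of myosin, while Acta1, the actin of the thin filament, and Ckm, the muscle creatine kinase that buffers ATP, serve fast and slow fibres. Ttn encodes titin, the giant spring protein of the sarcomere, and Des encodes desmin, the intermediate filament that ties neighbouring sarcomeres together. Desmin is made in smooth muscle and pericytes as well, and Acta1, Ttn and Des are also active in heart muscle. Skeletal muscles insert around the knee joint.

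On build GRCm38 with GENCODE M21, Acta1 lies at chr8:123891769-123894751 (minus strand, 1536 exonic bases), Tnnt3 lies at chr7:142498836-142516009 (plus strand, 1583 exonic bases), Tnnt1 lies at chr7:4504570-4516382 (minus strand, 2204 exonic bases), Mylpf lies at chr7:127208890-127214298 (plus strand, 1062 exonic bases), Ckm lies at chr7:19404776-19422841 (plus strand, 2913 exonic bases), Ttn lies at chr2:76703980-76982547 (minus strand, 116825 exonic bases) and Des lies at chr1:75360329-75368579 (plus strand, 3754 exonic bases). Values are sums over each gene's exons.

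The 250 bases upstream of the RefSeq start are shown for 4 of the genes in build GRCm38.p6, picked by their calls for injury below. At an unadjusted p under 0.05, Acta1 and Mylpf were called lower in both genotypes, Tnnt1 in Trem2-/- joints alone, and Des in neither. The WT groups of Acta1 overlapped (adjusted p = 0.0745, limma). No difference between genotypes passed adjustment for these genes. Capitals mark the matches to the motifs searched on both strands. These were TATAAA and sites of muscle transcription factors. The latter were the E-box CANNTG, to which MyoD and its relatives bind, the CArG box of serum response factor, and the MEF2 box.
Acta1, chr8:123894776-123895025, minus strand: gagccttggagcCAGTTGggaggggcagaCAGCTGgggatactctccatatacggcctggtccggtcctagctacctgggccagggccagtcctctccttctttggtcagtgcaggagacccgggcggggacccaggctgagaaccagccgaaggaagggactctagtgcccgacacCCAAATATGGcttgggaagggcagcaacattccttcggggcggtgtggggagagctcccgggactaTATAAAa
Mylpf, chr7:127211358-127211607, plus strand: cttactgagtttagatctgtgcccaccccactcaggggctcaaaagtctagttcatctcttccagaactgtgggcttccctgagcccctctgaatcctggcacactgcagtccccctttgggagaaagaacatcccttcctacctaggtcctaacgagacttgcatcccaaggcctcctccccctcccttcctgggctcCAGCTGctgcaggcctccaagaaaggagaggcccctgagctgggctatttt
Tnnt1, chr7:4515976-4516225, minus strand: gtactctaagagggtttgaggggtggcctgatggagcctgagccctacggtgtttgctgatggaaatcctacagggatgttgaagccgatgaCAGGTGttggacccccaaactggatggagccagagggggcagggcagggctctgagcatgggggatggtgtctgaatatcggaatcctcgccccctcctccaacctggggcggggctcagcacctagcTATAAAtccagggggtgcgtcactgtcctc
Des, chr1:75360042-75360291, plus strand: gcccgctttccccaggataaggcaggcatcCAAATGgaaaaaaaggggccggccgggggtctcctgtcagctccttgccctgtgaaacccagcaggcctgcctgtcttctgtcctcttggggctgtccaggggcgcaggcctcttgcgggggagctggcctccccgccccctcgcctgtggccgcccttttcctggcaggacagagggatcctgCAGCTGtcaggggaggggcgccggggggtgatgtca
Sequence was found for 6 of the 7 genes, Tnnt3 being the one without an entry. An E-box was present upstream of 6 of these 6, and in 66.2% of the 32851 promoters of the same length. Acta1 held 2 E-boxes, 238 and 221 bases before its start, and the only CArG box of the 6, 73 bases before the start, where 1.47% of all promoters hold such a box. Mylpf had 1 E-box, 51 bases before the start. Tnnt1 had 1 E-box 158 bases and TATAAA 30 bases before the start, while Des had E-boxes at 220 and 36 bases. TATAAA was found for Acta1, 7 bases before its RefSeq start, for Tnnt1 and in 12.4% of all promoters. The MEF2 box was found for Ttn and in 2.92% of all promoters. No matches overlapped in the 4 sequences shown. The RefSeq starts of Mylpf and Tnnt1 used here, and that of Ckm, lie inside the longer GENCODE spans of these genes. Those of Acta1 and Des lie just upstream of the GENCODE spans. The distances given thus depend on the start used. A match is a description of the letters and not of a bound site.

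Expression values are TMM-normalized CPM, reads per library total scaled by a composition factor of each library, and are listed in the order of replicates 1 to 4. Libraries held between 11567073 and 32867818 reads. The 7 genes together took a small share of them, 0.0219 to 0.0757% in WT D0, 0.0169 to 0.0309% in WT D7, 0.0371 to 0.0987% in Trem2-/- D0 and 0.0164 to 0.0263% in Trem2-/- D7. A count of 3 reads corresponds to between 0.101 and 0.250 CPM, below each value of the 7 genes. Trem2 itself stood at 2.51 to 5.61 CPM in WT D0, 0.948 to 2.68 in Trem2-/- D0, 10.7 to 22.5 in WT D7 and 3.42 to 4.84 in Trem2-/- D7, so that the genotypes overlapped at D0 and were apart at D7. WT D0 replicate 4 stood apart from the other WT D0 libraries, with 18523 CPM of the collagen gene Col1a1 against 1918 to 6018, and it had the lowest value of that group for 5 of the 7 muscle genes.

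Per kilobase of exon, Acta1 was the most abundant message and Ttn the least in 16 of 16 libraries. In WT D0 the levels were 129.8 ± 70.96 CPM per kb for Acta1, 45.4 ± 26.2 for Tnnt3, 32.7 ± 16.5 for Mylpf, 20.7 ± 9.46 for Des, 13.4 ± 7.31 for Ckm, 3.41 ± 2.10 for Tnnt1 and 0.0736 ± 0.0475 for Ttn (mean ± SD, n = 4). The same order held in each of the 4 WT D0 and each of the 4 Trem2-/- D0 libraries, although the ranges of neighbours from Tnnt3 down to Ckm overlapped between libraries, as did those of Acta1 and Tnnt3 in WT D0. Thus the fast troponin T gene was more abundant than the slow one at D0 in every library. In 7 of 8 injured libraries, all but Trem2-/- D7 replicate 3, Des stood higher in this order, above Mylpf. Des and Tnnt3 were then neighbours that did not differ beyond their spread, with 20.6 ± 2.64 and 23.7 ± 13.3 CPM per kb in WT and 20.9 ± 4.38 and 19.7 ± 2.87 in Trem2-/- joints. Tnnt3 was the higher of the pair in 2 of 4 WT D7 libraries and Des in 3 of 4 Trem2-/- D7 libraries. Titin messages were far below the rest on this scale in each group, at 0.0853 ± 0.0260 CPM per kb in Trem2-/- D0 and 0.0580 ± 0.0312 in Trem2-/- D7.

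**Figure D1:**
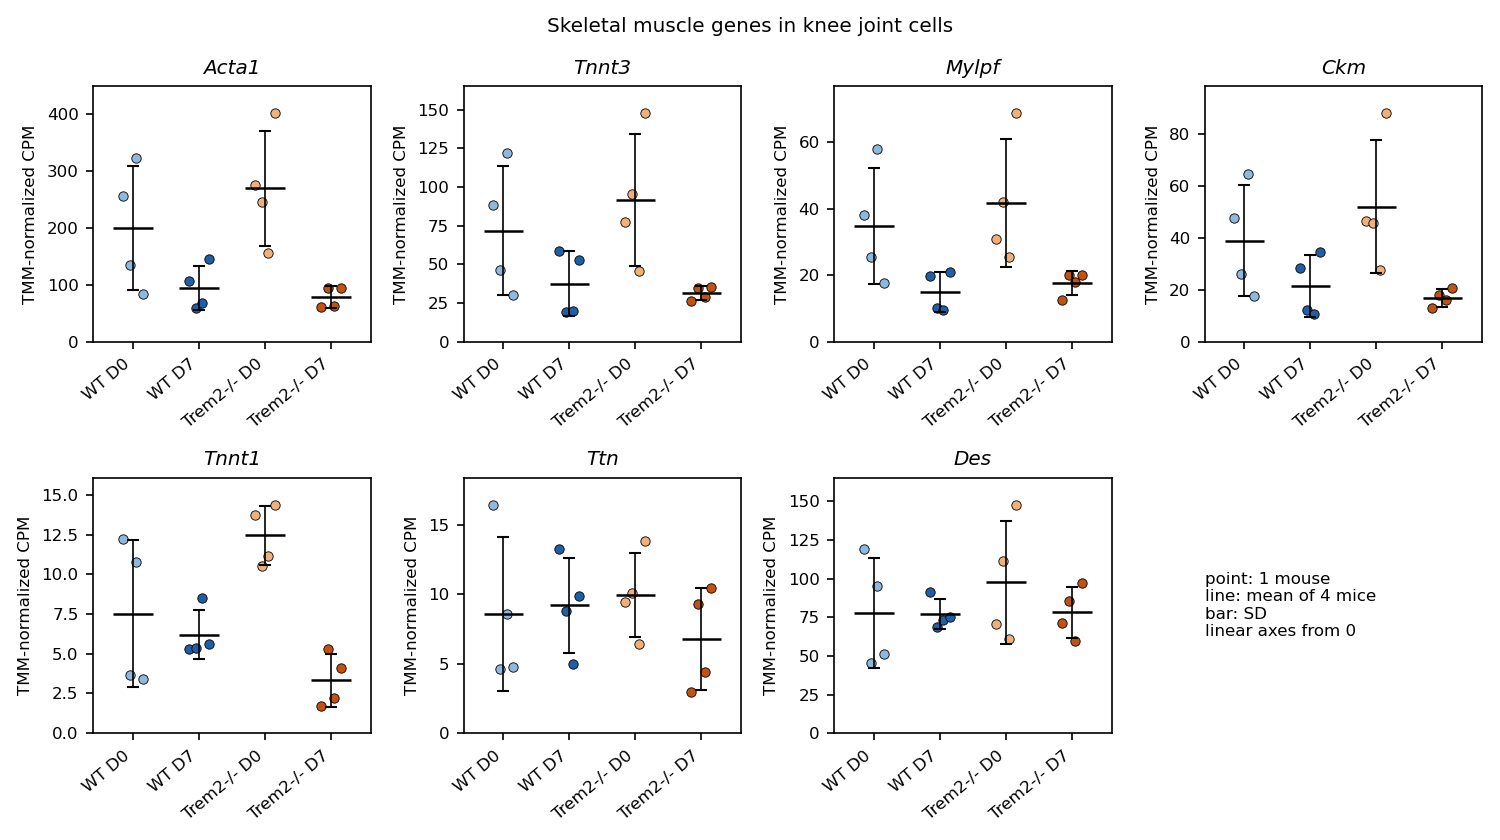
TMM-normalized CPM of each of the 7 muscle genes (vertical axes, linear from 0) in the 4 groups (horizontal axes), with 1 point per library, the mean as a line and the SD as a bar (n = 4). The Trem2-/- D7 points of Acta1, Tnnt3, Mylpf, Ckm and Tnnt1 lie below the 4 Trem2-/- D0 points, whereas those of Ttn and Des overlap them.

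The first question is how these messages changed 7 days after injury within each genotype. Acta1, Mylpf, Ckm, Tnnt3 and Tnnt1 were lower after injury in Trem2-/- joints, by between 2.36-fold and 3.73-fold in mean CPM, and Acta1 and Mylpf were lower in WT joints, by 2.10-fold and 2.31-fold. Ttn and Des were called in neither genotype. By the study's rule a change counted as called at an unadjusted p under 0.05 and a log2 fold change beyond 0.32 in either direction, here in a limma fit of log2(CPM + 1) to 13173 genes that reached 1 CPM in 4 or more libraries. The 7 genes all passed this filter, which asks for no particular group. The added 1 CPM pulls the fold changes of low genes such as Tnnt1 and Ttn towards 0. In bulk cells, fewer muscle cells or fibre fragments and less of the message in each cannot be told apart.

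In WT joints 2 of 7 genes were called lower and 0 higher (2 with an unadjusted p under 0.05, and again 2 lower and 0 higher with edgeR and with voom), where 18.2% of all genes tested were called lower and 19.3% higher. Mylpf alone passed adjustment, 1 of 7, against 12.6% of all genes that were lower with an adjusted p under 0.05. For 0 of the 7 did all 4 WT D7 values lie below all 4 WT D0 values, which 9.34% of all genes did. In Trem2-/- joints 5 of 7 were called lower and 0 higher (5 with an unadjusted p under 0.05, and 5 lower and 0 higher with edgeR and with voom), where 27.9% of all genes were called lower and 26.5% higher. These 5 genes also passed adjustment, as 27.2% of all genes did in this direction, and they were fully separated, as were 26.3% of all genes. The median log2 change of the 7 genes was -0.83 in WT and -1.41 in Trem2-/- joints, beside -0.04 and -0.04 over all genes tested.

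Acta1 encodes the actin of the thin filament. In WT joints it measured 256, 135, 322 and 84.2 CPM at D0 and 106, 59.7, 68.6 and 145 at D7. The highest WT D7 libraries, replicates 1 and 4, lay among the WT D0 values, and replicates 2 and 3 lay below them (log2 fold change -0.97, SE 0.39, adjusted p = 0.0745, limma with Benjamini-Hochberg adjustment; exact two-sided permutation test, p = 0.143). In Trem2-/- joints it measured 275, 246, 156 and 401 CPM at D0 and 60.2, 94.2, 62.3 and 95.1 at D7. Here each injured library lay below each uninjured one, and the mean fell from 269.7 ± 101 to 77.96 ± 19.3 CPM (SD, n = 4; log2 fold change -1.73, SE 0.39, adjusted p = 0.00189 by limma; exact permutation p = 0.0286, the smallest that 4 against 4 libraries allow). Of the 75-base stretches of Acta1, 0.394% also occur in Actb, the cytoplasmic actin gene, or in Gm47692, and no such stretch was found for the other 6 genes.

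Tnnt3 links troponin to tropomyosin in fast fibres. Its WT values were 88.3, 46.5, 122 and 30.3 CPM at D0 and 58.4, 18.9, 20.03 and 52.7 at D7. As for Acta1, WT D7 replicates 1 and 4 lay within the D0 range and replicates 2 and 3 below it, and the gene was not called (log2 fold change -0.90, SE 0.45, adjusted p = 0.136, limma). In Trem2-/- joints the values were 77.6, 95.2, 45.8 and 148 CPM at D0 and 26.1, 34.9, 28.7 and 35.2 at D7. The groups did not overlap, and the mean fell from 91.5 ± 42.6 to 31.2 ± 4.55 (SD, n = 4; log2 fold change -1.41, SE 0.45, adjusted p = 0.0156, limma; exact permutation p = 0.0286).

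Mylpf, the regulatory light chain of fast myosin, changed by nearly the same amount in the 2 genotypes. WT libraries held 38.00, 25.4, 57.9 and 17.8 CPM at D0 and 19.7, 10.1, 9.41 and 20.8 at D7. The lowest D0 value, in replicate 4, was below the higher pair of D7 values, and the mean fell from 34.8 ± 17.5 to 15.03 ± 6.09 (SD, n = 4; log2 fold change -1.11, SE 0.36, adjusted p = 0.0334, limma; exact permutation p = 0.0857). Trem2-/- libraries held 30.98, 42.01, 25.5 and 68.7 CPM at D0 and 12.5, 20.1, 17.97 and 20.2 at D7. The 4 injured values lay below the 4 uninjured ones (log2 fold change -1.12, SE 0.36, adjusted p = 0.0172, limma; exact permutation p = 0.0286).

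Ckm, the creatine kinase of muscle, followed the same libraries as Tnnt3. Its WT values were 47.6, 25.95, 64.8 and 17.8 CPM at D0 and 28.6, 12.3, 10.6 and 34.7 at D7. They overlapped, and the gene was not called (log2 fold change -0.83, SE 0.43, adjusted p = 0.153, limma; exact permutation p = 0.200). Its Trem2-/- values were 46.6, 45.99, 27.7 and 88.1 CPM at D0 and 12.8, 17.8, 16.1 and 20.7 at D7. The mean fell from 52.1 ± 25.6 to 16.9 ± 3.30 without overlap (SD, n = 4; log2 fold change -1.47, SE 0.43, adjusted p = 0.00966, limma; exact permutation p = 0.0286). Exons of Ckm overlap A930016O22Rik on the opposite strand by 451 bases, those of Ttn overlap Gm13938 by 453 and those of Des overlap Gm15179 by 220, and no source used here says whether reads were counted by strand.

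Tnnt1 is the troponin T of slow fibres. In WT joints it measured 12.2, 3.68, 10.8 and 3.38 CPM at D0 and 5.29, 5.38, 8.51 and 5.58 at D7. The uninjured libraries split into a high pair (replicates 1 and 3) and a low pair (replicates 2 and 4), and the injured ones lay between the pairs (log2 fold change -0.09, SE 0.35, adjusted p = 0.871, limma). In Trem2-/- joints it measured 13.7, 10.6, 11.2 and 14.4 CPM at D0 and 1.71, 5.31, 2.24 and 4.09 at D7. The uninjured values were close together and the injured values all lay below them, with means of 12.4 ± 1.88 and 3.34 ± 1.66 (SD, n = 4; log2 fold change -1.70, SE 0.35, adjusted p = 0.000870, limma; exact permutation p = 0.0286).

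Ttn and Des, the scaffold genes, did not pass the test in either genotype. Titin reads gave 16.4, 4.59, 8.61 and 4.74 CPM in WT D0, 13.2, 8.78, 4.96 and 9.86 in WT D7, 9.48, 10.1, 6.44 and 13.8 in Trem2-/- D0 and 2.99, 9.30, 4.37 and 10.4 in Trem2-/- D7. WT values overlapped over most of their range (log2 fold change 0.19, SE 0.40, adjusted p = 0.750, limma), and 2 of 4 Trem2-/- D7 libraries lay below the Trem2-/- D0 range (log2 fold change -0.59, SE 0.40, adjusted p = 0.229, limma). Desmin was 119, 45.2, 94.99 and 51.5 CPM in WT D0, 91.4, 68.5, 73.5 and 75.4 in WT D7, 70.9, 111, 61.1 and 148 in Trem2-/- D0 and 71.1, 85.8, 59.4 and 96.9 in Trem2-/- D7. The injured libraries of each genotype lay inside or close to the uninjured range (log2 fold change 0.10, SE 0.30, adjusted p = 0.836 in WT and log2 fold change -0.25, SE 0.30, adjusted p = 0.502 in Trem2-/- joints, limma).

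**Figure D2:**
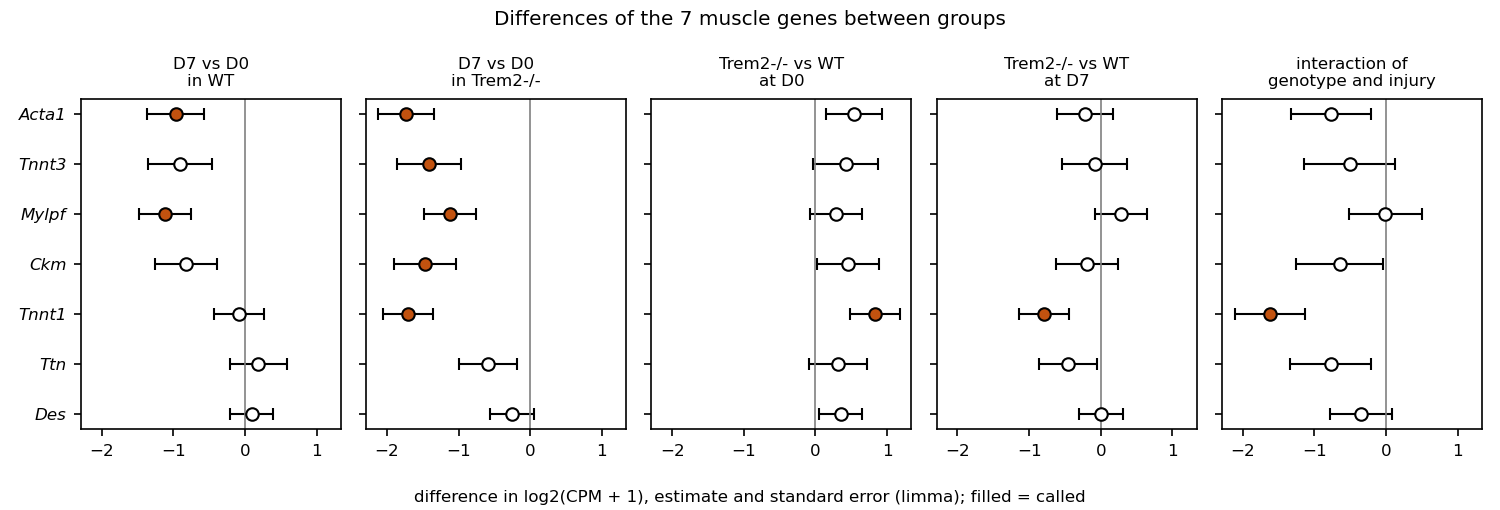
Estimated difference in log2(CPM + 1) with its standard error (horizontal axes) for the 7 muscle genes (rows) in the 5 comparisons (panels), limma with 4 libraries per group; filled points were called. Points for D7 against D0 sit left of 0 for 5 of 7 genes in WT and 7 of 7 in Trem2-/- joints, and Tnnt1 is the filled point in the 3 comparisons of genotype.

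The WT result rested on few libraries. Without WT D0 replicate 1 or 3 or WT D7 replicate 2 or 3, Acta1 was no longer called (log2 fold change -0.79, -0.68, -0.78 and -0.84), which left 1 gene. Without WT D0 replicate 4, the collagen-rich library, or WT D7 replicate 1 or 4, the count rose to 4 as Ckm (-1.14, -1.01 and -1.10) and Tnnt3 (-1.24, -1.17 and -1.12) joined Acta1 and Mylpf, and Tnnt3 passed the p threshold without WT D0 replicate 2 as well (-1.045). In Trem2-/- joints the same count, 5, was found without each of the 16 libraries in turn.

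The next question is whether the genotypes differed. At D0 the mean of each of the 7 genes was higher in Trem2-/- than in WT libraries, by 1.16-fold to 1.66-fold, and 1 of 7 was called higher, Tnnt1, with 0 called lower, where 0.782% of all genes tested were called higher and 1.37% lower. Tnnt1 had means of 7.51 ± 4.63 CPM in WT and 12.4 ± 1.88 in Trem2-/- libraries at D0 (SD, n = 4; log2 fold change 0.83, SE 0.35, adjusted p = 0.9996, limma; exact permutation p = 0.143). The 4 Trem2-/- values lay inside or just above the WT range, above its low pair of libraries. The call was lost without WT D0 replicate 2 or 4 (0.60 and 0.57) or Trem2-/- D0 replicate 1 or 4 (0.78 and 0.76), with the 2 compared groups fitted alone (0.83), and with edgeR (0.73). At D7, 1 of 7 was called lower, again Tnnt1, and 0 higher, where 4.53% of all genes were called lower and 1.18% higher. It had means of 6.19 ± 1.55 CPM in WT and 3.34 ± 1.66 in Trem2-/- libraries, and 3 of 4 Trem2-/- libraries lay below the lowest WT library, whereas replicate 2 at 5.31 CPM lay just above it (SD, n = 4; log2 fold change -0.79, SE 0.35, adjusted p = 0.647, limma; exact permutation p = 0.0571). This call was lost without WT D7 replicate 3 or 4 (-0.65 and -0.82) or Trem2-/- D7 replicate 1 or 3 (-0.59 and -0.68). The call was also lost with quantile normalization (-0.74), a pseudocount of 5 CPM (-0.44) or replicate number as a block in the fit (-0.79). The other 6 genes had D7 differences between -0.46 for Ttn and 0.28 for Mylpf.

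The change with injury was compared between genotypes by the interaction of genotype and injury. Its estimate was below 0 for 7 of 7 genes (6 of 7 with voom, where that of Mylpf was above 0), with a median of -0.65 beside 0.0056 over all genes, and 1 of 7 was called, where 5.02% of all genes tested were called lower and 2.77% higher. Tnnt1 was again the called gene, with an interaction of -1.62 (SE 0.49, unadjusted p = 0.00472, adjusted p = 0.579, limma). No gene of the 7 passed adjustment in any comparison of genotypes (0 of 7 at D0, at D7 and for the interaction with limma, edgeR and voom, with 1 of 7 at an unadjusted p under 0.05 in each limma fit), and neither did any other gene, with 0 of 13173 passing in each of these comparisons with limma and with edgeR. For Acta1 the interaction was -0.76 (SE 0.56), for Ckm -0.65 (SE 0.61) and for Mylpf -0.01 (SE 0.51). The greater number of genes called in Trem2-/- than in WT joints is thus not shown to be a difference between the genotypes for Acta1, Ckm, Tnnt3 or Mylpf. For Tnnt1 such a difference rests on an unadjusted p alone and is not shown after adjustment. The comparisons within and between genotypes share their libraries. So do the 7 genes, which rose and fell together from library to library, and their directions are not 7 independent results.

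A further 69 muscle genes of the table stood in 6 lists by their role in the fibre, and 64 of the 69 passed the filter. After injury 10 of 64 were called lower and 1 higher in WT joints, and 41 lower and 1 higher in Trem2-/- joints, with medians of -0.30 and -0.89. Those shares, and the counts of each list below, can be read beside the 18.2% (WT) and 27.9% (Trem2-/-) of all genes called lower. Without WT D0 replicate 3 the WT count of either direction was 2 and without WT D0 replicate 4 it was 21, against 11, while in Trem2-/- joints the count lay between 29 and 51, against 42, when any 1 library was left out.

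Thick filament genes were called lower for 1 of 12 in WT and 11 of 12 in Trem2-/- joints. Myl1, the essential light chain of fast myosin, fell from 51.1 ± 26.7 to 22.5 ± 10.8 CPM in WT and from 63.6 ± 25.02 to 23.01 ± 3.84 in Trem2-/- joints (SD, n = 4). Myom1, the M-band protein myomesin, was called in Trem2-/- joints alone (log2 fold change -0.95, SE 0.37, adjusted p = 0.0398, against -0.28, SE 0.37, in WT, limma), and its interaction of -0.67 (SE 0.52) was not called. Thin filament genes were called lower for 2 of 10 in WT and 8 of 10 in Trem2-/- joints. Tnnc2, the calcium-binding troponin C of fast fibres, was called in both (log2 fold change -0.90, SE 0.41, and -1.50, SE 0.41). Its WT groups overlapped (adjusted p = 0.111, limma), and its Trem2-/- groups did not (adjusted p = 0.00700, limma). Tpm2, a tropomyosin that smooth muscle and other cells also make, was called in neither genotype (-0.19 and -0.53).

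Genes of the Z-disc and scaffold were called lower for 2 of 13 in WT and 8 of 13 in Trem2-/- joints, with Flnc called higher in both. The WT call of Flnc (log2 fold change 0.90, adjusted p = 0.109, limma) was not made by edgeR. Flnc, which encodes the actin cross-linker filamin C, measured 97.2, 96.7, 57.9 and 138 CPM in Trem2-/- D0 and 197, 232, 258 and 259.8 in Trem2-/- D7. It rose in Trem2-/- joints without overlap (log2 fold change 1.33, SE 0.41, adjusted p = 0.0136, limma) and went against the other called genes of its list. Xirp1, an actin-binding protein of muscle, was not called (-0.23 in WT and -0.67 in Trem2-/- joints). Among genes of excitation and calcium handling 5 of 11 were called lower in Trem2-/- joints, and in WT 0 of 11 were called by limma (0 with an unadjusted p under 0.05, 1 lower with edgeR, and 1 lower and 1 higher with voom). Atp2a1, the calcium pump of fast fibres, was among the 5 (-1.17, SE 0.45), and Jph2, which joins the surface membrane to the calcium store, was not (0.13, SE 0.29).

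Energy supply genes were called lower for 4 of 12 in WT and 7 of 12 in Trem2-/- joints. Mb, the oxygen store myoglobin, fell in Trem2-/- joints (log2 fold change -1.38, SE 0.47, adjusted p = 0.0220, limma), with -0.41 (SE 0.47) in WT. Pfkm, the muscle form of phosphofructokinase that many tissues use, was not called in either (-0.13 and -0.13). Of the myogenic regulators and regeneration genes 6 of 10 passed the filter, and 1 was called lower in WT and 2 in Trem2-/- joints. Myod1, the master regulator of the muscle lineage, measured 14.8, 3.25, 11.4 and 6.75 CPM in WT D0, 2.65, 2.32, 3.72 and 8.73 in WT D7, 11.02, 8.15, 8.41 and 8.57 in Trem2-/- D0 and 3.02, 3.10, 3.92 and 5.84 in Trem2-/- D7. It was called lower in both genotypes (-0.88 and -1.04). The WT groups of Myod1 overlapped (adjusted p = 0.0841, limma), and its Trem2-/- groups did not (adjusted p = 0.0284, limma). Musk, a receptor kinase of the nerve-muscle synapse, was called in neither genotype (0.09 and -0.41).

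**Figure D3:**
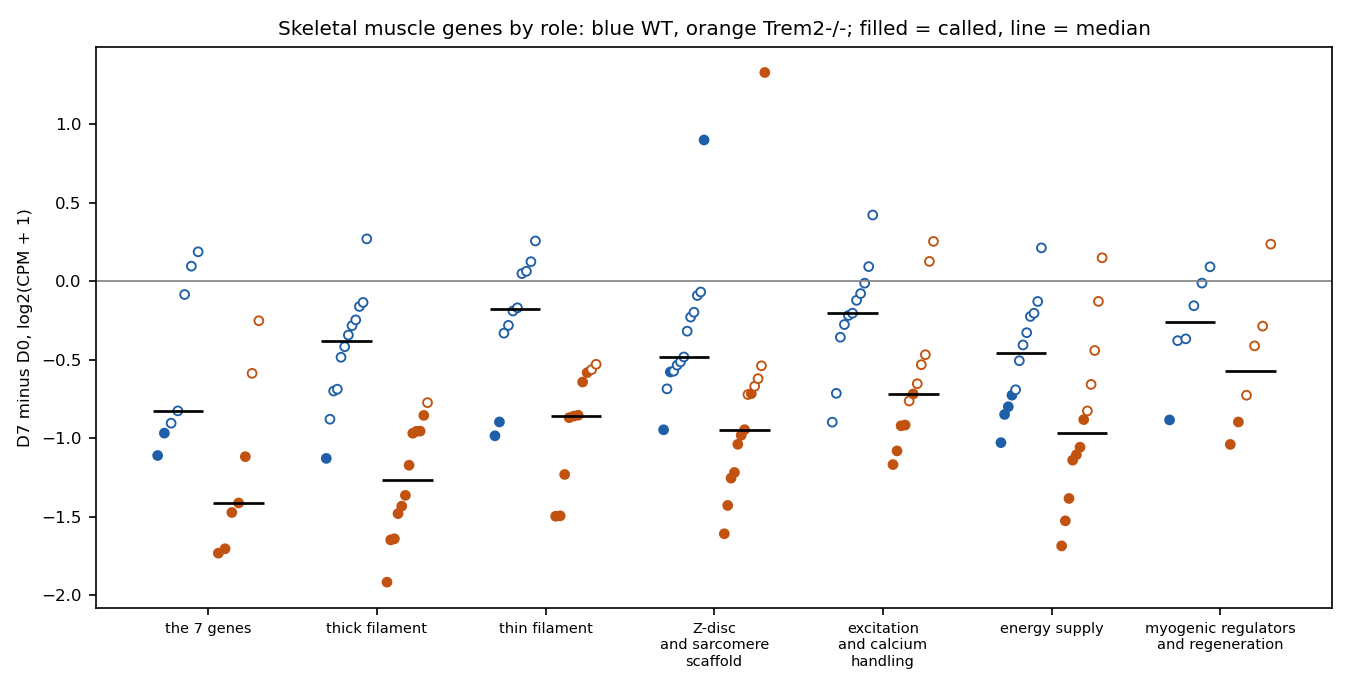
Difference between D7 and D0 in log2(CPM + 1) (vertical axis) for each muscle gene tested, by role (horizontal axis), in WT (blue) and Trem2-/- (orange) joints; filled points were called and lines are medians. The 7 genes have medians of -0.83 and -1.41, and Flnc is the filled point above 0 in each genotype.

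Slow and fast fibre genes were set side by side because Tnnt1 and Tnnt3 belong to different fibres; the 8 slow and 13 fast genes include members of the lists above. After injury in Trem2-/- joints 7 of 8 slow and 11 of 13 fast genes were called lower, where 27.9% of all genes tested were. In WT joints 5 of 13 fast genes were called lower and 0 of 8 slow genes, where 18.2% of all genes tested were. Of the slow genes in WT, 0 had an unadjusted p under 0.05 by limma, 1 was called lower with edgeR and 0 with voom. For the interaction 4 of 8 slow genes were called lower, Tnnt1, Myl2, Tnnc1 and Myh7, where 5.02% of all genes were, and 0 of 13 fast genes (0 with an unadjusted p under 0.05 by limma, and 0 with edgeR and with voom), while no gene, slow genes included, passed adjustment (0 of 13173 with limma and with edgeR). The difference between the lists was not tested. Myh7, the slow myosin heavy chain, shows the scale of these values, with 1.254, 1.02, 5.86 and 2.26 CPM in WT D7 and 0.101, 0.758, 0.448 and 0.417 in Trem2-/- D7, the lowest of which stands for 3 reads.

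Within a library, Tnnt1 was 13.8, 7.92, 8.84 and 11.1% of the Tnnt3 CPM in WT D0 and 9.06, 28.5, 42.5 and 10.6% in WT D7. It was 17.7, 11.1, 24.3 and 9.74% in Trem2-/- D0 and 6.56, 15.2, 7.80 and 11.6% in Trem2-/- D7. WT D7 replicates 2 and 3 stood above each of the other 14 libraries, and these are the libraries with the lowest Acta1, Tnnt3, Ckm and Mylpf of their group. The groups overlapped in each comparison (exact two-sided permutation test on the log2 ratio, p = 0.257 for injury in WT, 0.229 for injury in Trem2-/-, 0.229 for genotype at D7 and 0.229 at D0).

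Des was compared with Acta1 in the same way, because desmin is made outside skeletal muscle as well; the ratio of CPM is not corrected for length and serves to compare libraries. It was 0.467, 0.334, 0.295 and 0.612 in WT D0 and 0.863, 1.15, 1.07 and 0.521 in WT D7. It was 0.258, 0.452, 0.391 and 0.368 in Trem2-/- D0 and 1.18, 0.911, 0.953 and 1.02 in Trem2-/- D7. Trem2-/- D7 libraries thus held more Des per Acta1 than Trem2-/- D0 libraries, with full separation (exact permutation p = 0.0286). In WT, 3 of 4 D7 libraries lay above the D0 range and replicate 4 lay inside it (p = 0.0571 by the same exact test). Acta1 alone was fully separated in Trem2-/- joints and Des overlapped, so the separation of the ratio is not independent of the Acta1 result. These ratio tests were chosen after the values had been seen.

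**Figure D4:**
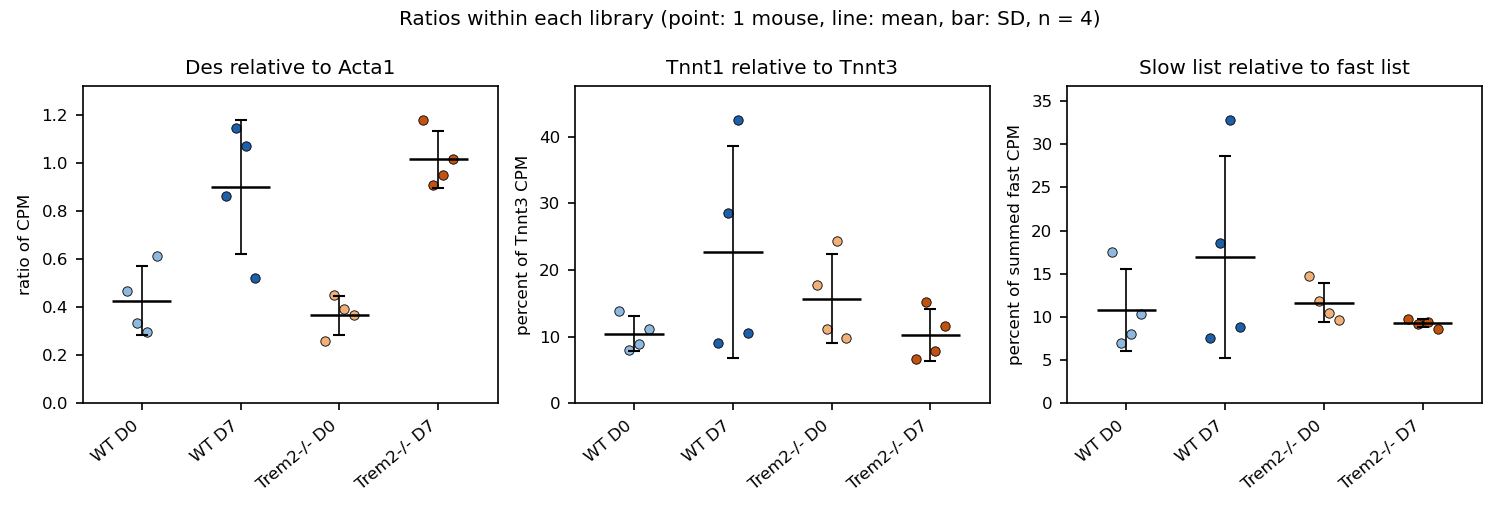
Ratio of Des to Acta1 CPM, Tnnt1 as a percentage of Tnnt3 CPM, and summed CPM of 8 slow genes as a percentage of that of 13 fast genes (vertical axes, linear from 0) in the 4 groups, with 1 point per library, the mean as a line and the SD as a bar (n = 4). The Des ratio is at 0.911 or more in the 4 Trem2-/- D7 libraries and at 0.452 or less in the 4 Trem2-/- D0 libraries.

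Marker lists of other cell types moved with injury in the same libraries. Over all genes tested, 18.2% were called lower and 19.3% higher after injury in WT joints, and 27.9% and 26.5% in Trem2-/- joints. Of 8 leukocyte markers 8 were called lower in each genotype, and their summed level was 2479 to 5180.2 CPM in WT D0, 1420.5 to 2948 in WT D7, 3119 to 5605 in Trem2-/- D0 and 1049.5 to 1334 in Trem2-/- D7. Fibroblast markers were called higher for 7 of 8 in each genotype, and their sum was 6239.9 to 50072 CPM in WT D0, 74871 to 115480.0 in WT D7, 5221 to 11399 in Trem2-/- D0 and 99604 to 139900.0 in Trem2-/- D7. Cartilage markers were called higher for 5 of 6 in WT and 6 of 6 in Trem2-/- joints, and tendon markers for 3 of 6 and 6 of 6. The cartilage sum was 6036 to 18295 CPM in WT D0, 37366 to 79522 in WT D7, 3358 to 10841 in Trem2-/- D0 and 33618 to 54057 in Trem2-/- D7. Erythroid markers were called lower for 4 of 4 in each genotype, and adipocyte markers for 2 of 3 in WT and 1 of 3 in Trem2-/- joints. A CPM value is relative to these other messages, and the part of their change in the lower muscle values was not tested. Some of these lists also moved between genotypes, at unadjusted p and beside the Tnnt1 values above. Leukocyte markers were called lower in Trem2-/- joints for 6 of 8 at D7 and for 6 of 8 in the interaction, where 4.53% and 5.02% of all genes were. Tendon markers were called higher for 3 of 6 at D7 and 4 of 6 in the interaction, where 1.18% and 2.77% of all genes were. At D0, 3 of 6 tendon, 3 of 6 cartilage and 2 of 8 fibroblast markers were called lower, where 1.37% of all genes were. The part of these lists in the Tnnt1 values was not tested. The 6 endothelial markers had log2 changes between -0.02 and 0.10 in WT and between -0.05 and 0.44 in Trem2-/- joints.

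Smooth muscle and pericyte markers, which matter for Des, were called higher for 6 of 12 in each genotype, where 19.3% (WT) and 26.5% (Trem2-/-) of all genes were. In Trem2-/- joints 3 of 12 (Myh11, Lmod1 and Cnn1) were called lower, a share near the 27.9% of all genes. The sum of the 12 markers was 1348 to 2532 CPM in WT D0, 2054 to 2826 in WT D7, 1145 to 3213 in Trem2-/- D0 and 2146 to 2429 in Trem2-/- D7. Heart muscle markers, 5 of 8 of which were measured, summed to 13.9 to 19.5 CPM in WT D0, 10.4 to 11.5 in WT D7, 8.29 to 20.47 in Trem2-/- D0 and 8.33 to 9.92 in Trem2-/- D7. Most of this came from Myl4, with 3.86 to 14.9 CPM over the 16 libraries, and Ryr2, with 1.01 to 7.96, and no library had more than 2.45 CPM of Myh6, Tnni3 or Tnnt2. After injury Tnnt2 was called higher in both genotypes, Myl4 lower in WT and Myh6 lower in Trem2-/- joints.

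**Figure D5:**
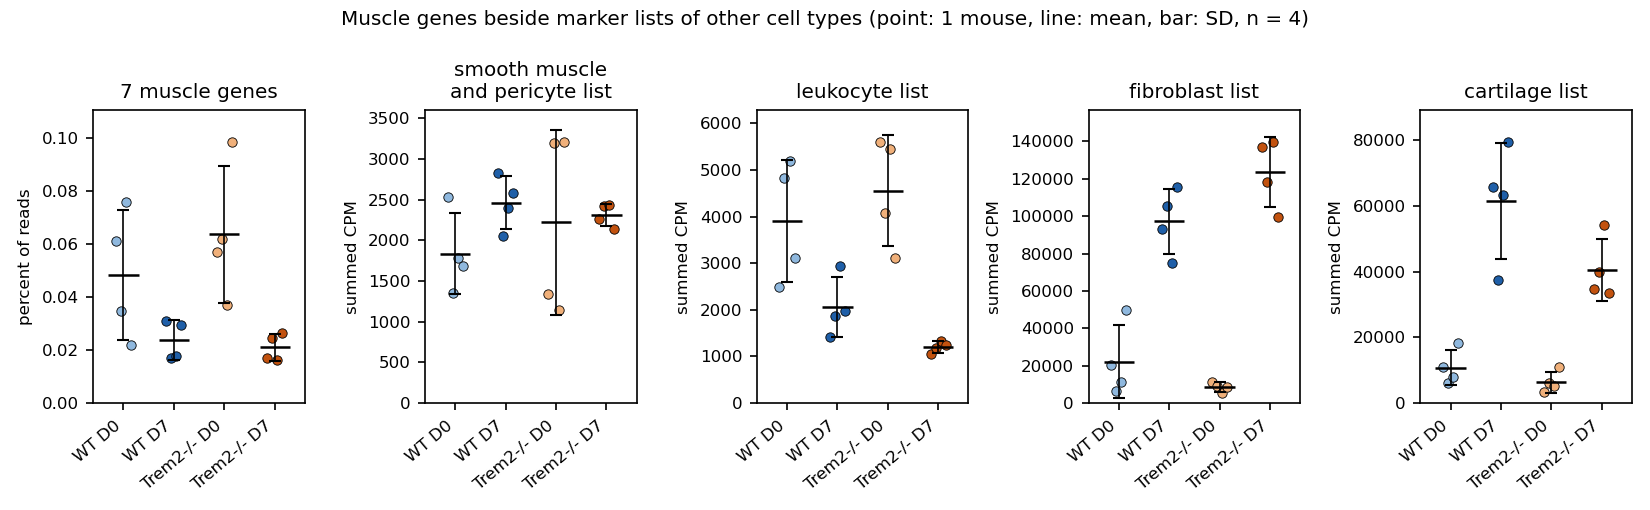
Share of reads on the 7 muscle genes (percent) and summed CPM of marker lists of smooth muscle and pericytes, leukocytes, fibroblasts and cartilage (vertical axes, linear from 0) in the 4 groups, with 1 point per library, the mean as a line and the SD as a bar (n = 4). Muscle and leukocyte values are lower at D7 on average, and fibroblast and cartilage values are higher in each D7 library than in each D0 library of the same genotype.

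Which other genes follow the 7 most closely was asked over the 16 libraries, as a description. The mean log2(CPM + 1) of the 7 genes was compared with that of 10545 other genes (mean level 5 CPM or more), and 8 of the 10 highest Pearson correlations belonged to the muscle lists above. Tcap, the titin cap of the Z-disc, came first (r = 0.98), followed by Tnnc2 (0.97), Srl (0.97), Tnni2 (0.96), Myot (0.95), Mb (0.95), Mybpc1 (0.94), Eef1a2 (0.94), Atp2a1 (0.94) and Xirp2 (0.94). Srl encodes sarcalumenin of the calcium store, and Eef1a2 the elongation factor form of muscle and nerve. After subtraction of the group means r remained between 0.92 and 0.97 for the 10 genes, and without the 2 libraries farthest from the median, WT D0 replicate 3 and Trem2-/- D0 replicate 4, it was between 0.91 and 0.96. The points share library, depth and preparation, and no test was made.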

How the data were processed

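Bulk RNA-seq of knee joint cells was measured in 16 libraries, 4 per group, grouped by the labels. The authors aligned reads with STAR to mm10 (GRCm38), counted them per gene with featureCounts and normalized with edgeR's TMM; versions, annotation, strand setting and the filter on low counts are not given in the sources used here. The study names a stranded mRNA kit and the labels another. The deposited table holds a normalized signal per gene, TMM-scaled CPM, for 13733 genes (Fcgr1 is listed 2 times with the same values). Because 100% of values were whole multiples of the value of 1 read (tolerance 0.1 read), the reads of each library were recovered, between 11567073 and 32867818. The number of libraries and these counts limit the precision.

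Values were tested as log2(CPM + 1) with limma 3.58.1 (R 4.3.3) in the 13173 genes that reached 1 CPM in 4 or more libraries, 1 fit over the 4 groups, moderated with a trend. A gene was called at an unadjusted p under 0.05 and a log2 fold change beyond 0.32, after the study's methods, and Benjamini-Hochberg adjusted p-values are given beside. Single values were tested by exact two-sided permutation over the 70 assignments of 4 against 4 libraries. Tests on the recovered reads (the quasi-likelihood test of edgeR 4.0.16, and limma after voom) were alternatives, with pseudocount, filter, scaling, replicate block and each library left out. The edgeR test called 5024 genes for injury in WT, 7279 in Trem2-/-, 891 between genotypes after injury, 466 before it and 1226 for the interaction. The 13428 symbols found in GENCODE M21 (GRCm38) took gene lengths from it, as unions of exons, and promoters came from RefSeq.

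The members and lists were chosen with earlier results of these data known. Named genes were the 7 members, the 2 genes of each role list with the highest mean CPM, and the 10 genes most correlated with the members' mean. Other genes named were chosen after their values were seen.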

Additional observations from a re-analysis of the deposited data

Results flagged for a closer look

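Tnnt1 in WT D7 replicate 3 stood apart from the other 3 libraries of its group, at 8.51 CPM against 5.29 to 5.58, a gap of 0.9098 of the range of the group, past Dixon's 95% limit for 4 libraries. It was the 1 such library among 48 groups of 4 values checked, where chance gives about 1 in 20. The same library had the lowest Mylpf and Ckm of its group.

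The change of Tnnt1 with injury differed between the genotypes by -1.618 on the log2(CPM + 1) scale in limma's interaction term (unadjusted p = 0.00472, adjusted p = 0.579). In Trem2-/- joints 4 of 4 injured libraries lay below the uninjured ones, and in WT joints the groups overlapped.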

How the results depend on the processing

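For the 7 genes in 5 comparisons, 887 of 938 values under other settings kept their direction and side of the threshold, 17 lost the call, 8 gained it and 26, none of them called, turned in direction. The 7 genes gave a count called of 2 for injury in WT (1 at an adjusted p under 0.05, 1 to 4 leaving out 1 library), 5 in Trem2-/- (5 under each setting), 1 for genotype at D7 (0 with pseudocount 5, quantile normalization, the replicate block or adjusted p; 0 to 1), 1 at D0 (0 with the compared groups alone, edgeR or adjusted p; 0 to 1) and 1 for the interaction (0 by adjusted p; 1 to 2, with Ttn added without WT D0 replicate 1). For the other muscle genes the counts were 11 in WT (7 with the compared groups alone, 3 by adjusted p; 2 to 21), 42 in Trem2-/- (22 with a mean of at least 5 CPM, which tests fewer genes; 29 to 51), 2 at D7 (4 with pseudocount 0.1, 0 with pseudocount 5, a mean of at least 5 CPM or adjusted p, 7 with the compared groups alone, 1 with the replicate block or a fold change over 1.5; 0 to 4), 1 at D0 (0 with pseudocount 5, a mean of at least 5 CPM or adjusted p, 3 with quantile normalization, 2 with edgeR or voom; 0 to 18, rising to 18 when WT D0 replicate 1 was left out, to 15 for WT D0 replicate 3 and to 17 for Trem2-/- D0 replicate 3) and 6 for the interaction (3 with pseudocount 5, 0 with a mean of at least 5 CPM or adjusted p; 2 to 13).

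Direction turned for Tnnt1 in WT with voom (0.0028), Des in WT with edgeR (-0.012) and the interaction of Mylpf with pseudocount 0.1 (0.0038) and voom (0.023). Leaving out 1 library, it turned for Tnnt1 for injury in WT (-0.35 to 0.19), Ttn for injury in WT (-0.019 to 0.53), Des for injury in WT (-0.12 to 0.34), Acta1 for genotype at D7 (-0.41 to 0.0084), Ckm for genotype at D7 (-0.46 to 0.085), Tnnt3 for genotype at D7 (-0.34 to 0.18), Des for genotype at D7 (-0.10 to 0.13) and Mylpf for the interaction (-0.29 to 0.26).

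Replicate numbers are shared between groups, and these values do not settle whether they pair the libraries. The correlation of same-numbered libraries' deviations lay between -0.509 and 0.406, over 0.1 in 11 of 24 pairs. For libraries of different numbers it lay between -0.632 and 0.713, over 0.1 in 21 of 72 pairs. With the replicate block Tnnt1 at D7 (-0.79) was no longer called. The interaction could not be fitted to the compared groups alone, since it uses all 4. The causes were not tested.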

Other observations

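Within groups the 7 genes rose and fell together from library to library, to different degrees. After subtraction of group means, log2(CPM + 1) of Acta1, Ckm, Mylpf and Tnnt3 correlated with Pearson's r between 0.93 and 0.98 for each pair over 16 libraries, while the slow gene Tnnt1 correlated with the other 6 at 0.49 to 0.69, or 0.30 to 0.59 without the 2 libraries farthest from the median. Des correlated with the other members at 0.69 to 0.80, and with the smooth muscle genes Tagln at 0.85, Acta2 at 0.78 and Myh11 at 0.77. These values are descriptions, and the points share library, depth and preparation.

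Trem2-/- D0 replicate 4 had the highest value of its group for 7 of the 7 genes and Trem2-/- D0 replicate 3 the lowest for 6. Among injured Trem2-/- libraries, replicate 1 was lowest for 6 and replicate 4 highest for 6. Acta1 took between 32.1% and 52.5% of the reads of the 7 genes in a library.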
